A study of Oryza sativa with 2 samples.

Results

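Of the genes measured here, 6 were followed: the JAZ repressors JAZ5, JAZ7, JAZ8, JAZ9 and JAZ11, and the transcription factor gene JAMYB. They were taken by gene number from 15798 genes that had at least 1 array feature assigned to a single gene, and each had exactly 1 such feature. The arrays set RNA from rice (Oryza sativa) plants exposed to jasmonic acid at 5 µM against RNA from unexposed control plants. All plants were grown in MS medium and the labels give an age of 7 days. The labels name no cultivar, call the material shoots in the sample titles and whole seedlings in the design text, and call the treated RNA exposed for 7 days where the design text exposes seedlings of that age. Of the 2 two-colour arrays, array 1 carried the treated RNA in Cy5 and the control RNA in Cy3, and array 2 carried them the other way round. The labels number both as replication 1, so they count as 1 replicate: no spread between plants could be measured, no p-value was computed, and every value describes these arrays only. Such total RNA also cannot tell a change in RNA per cell from a change in the share of a cell type.

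Jasmonic acid is a plant hormone made after wounding and attack. Its active form, a conjugate with isoleucine, brings the F-box protein COI1 together with JAZ proteins, which are then destroyed. JAZ proteins otherwise hold back MYC-type bHLH transcription factors through NINJA and TOPLESS-type corepressors. In Arabidopsis the JAZ genes are themselves targets of those factors and are induced by the hormone, a feedback that restores repression. JAMYB is a rice MYB factor known for induction by jasmonate, wounding and blast infection. This background does not settle the direction of the values below.

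The deposited values were log ratios of the channels at each spot, given here on the log2 scale. No source says which channel is the numerator. The half-difference, (array 1 minus array 2)/2, measures the treatment if the numerator is the same dye on both arrays: a positive value is then higher in treated plants if that dye is Cy5, and lower if it is Cy3. The half-sum, (array 1 plus array 2)/2, measures the treatment instead if the numerator is the treated RNA on both arrays. Values are therefore given as sizes, and a gene is placed on the array 1 side if array 1 has a ratio of 2 or more and array 2 a ratio of 1/2 or less, and on the array 2 side in the reverse case. Every half-difference below changes sign under the Cy3 reading. The correlation of the arrays was 0.54 over all 22575 features (Pearson's r, across features that share the same arrays) but −0.72 in the brightest of 10 equal groups of features. The median ratio was −0.30 on array 1 and −0.32 on array 2. Genes were assigned to spots by a rearranged grid that no source states; with it 0 of 228 control-like spots lay on a feature with a gene. As spot signals were not given, brightness was taken from the whole-number ratio behind each value: it is the log2 geometric mean of the reduced numerator and denominator, averaged over the arrays, and a lower bound on signal. Its median over all features was 5.30.

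JAZ8 and JAZ7 stood on the array 1 side, JAZ11 had the same pattern at a smaller size, and the other 3 genes had ratios below 1 on both arrays. Thus 2 of the 6 genes were on the array 1 side, against 0.500% of all genes, and 0 on the array 2 side, against 0.165%. The genes were chosen with these values known, so the count describes them and carries no test. By half-difference the order was JAZ8 at 2.07, JAZ7 at 1.37, JAZ11 at 0.92, JAMYB at 0.38, JAZ9 at 0.10 and JAZ5 at −0.11. The median of all genes was 0.01.

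**Figure D1:**
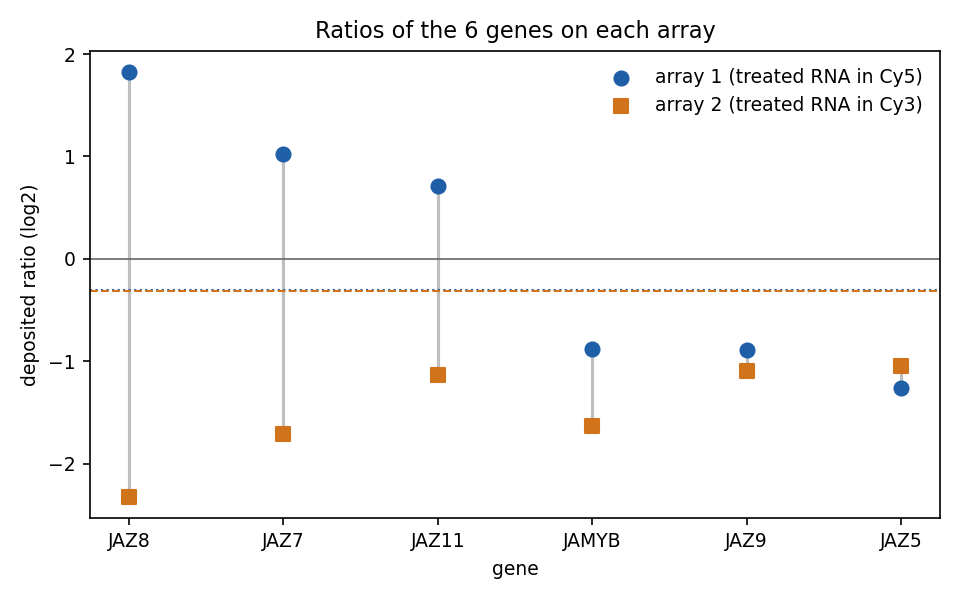
Deposited log2 ratio (vertical axis) of each of the 6 genes on array 1 (circles) and array 2 (squares); a grey line joins the arrays of a gene, and the dotted and dashed lines mark the medians of all features, −0.30 and −0.32. JAZ8, JAZ7 and JAZ11 lie above 0 on array 1 and below −1 on array 2, while JAMYB, JAZ9 and JAZ5 lie below 0 on both.

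JAZ8 (LOC4347164), a repressor known in rice for holding back jasmonate-induced resistance to bacterial blight, had the largest half-difference of the 6. Its ratio was 124/35 on array 1, or 1.82, and 116/579 on array 2, or −2.32. The size was 3.54-fold on array 1 and 4.99-fold on array 2, and 4.21-fold by the half-difference. JAZ8 ranked 21 of the 15798 genes by the size of the half-difference, whatever its sign. Its brightness of 7.03 lay in the brightest of 4 equal groups. Among the 500 features nearest in brightness the half-difference had a median of −0.01 and a spread of 0.15, taken as the scaled median absolute deviation, and the half-sum had the same spread to 2 decimals. The half-sum of JAZ8 was −0.25, close to the median of −0.10 at that brightness.

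JAZ7 (LOC4343899), which shares the TIFY10 group with JAZ8 in the annotation, was the brightest of the 6 at 9.95. Its ratio was 859/421 on array 1, or 1.03, and 905/2948 on array 2, or −1.70. The array 1 value lay just inside the 2-fold threshold, at 2.04-fold, and the array 2 value was 3.26-fold. The half-difference of 1.37 was a size of 2.58-fold and ranked 70 by size. Features of like brightness had a spread of 0.34 in the half-difference, wider than around JAZ8, and 0.16 in the half-sum. After the array medians were subtracted, JAZ7 had 1.33 and −1.39, nearly the same size on both arrays, and JAZ8 had 2.12 and −2.003.

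JAZ11 (LOC4331833), of the TIFY11 group, lay just outside the threshold. Its ratio was 18/11 on array 1, or 0.71, and 69/151 on array 2, or −1.13. The half-difference of 0.92, a size of 1.89-fold, ranked 220 by size. Brightness was 5.24, near the median of all features, and the spread at that brightness was 0.16 in the half-difference and 0.19 in the half-sum. Subtracting the array medians put array 1 past 2-fold, at 1.01, and array 2 short of it, at −0.81, so JAZ11 missed the threshold on 1 array either way.

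JAMYB (LOC4351131) had ratios below 1 on both arrays, on the dimmest of the 6 spots. They were 6/11 on array 1, or −0.87, and 10/31 on array 2, or −1.63. With terms this small, a step of 1 in the smaller reduced term moves the log2 ratio by 0.22 on array 1 and 0.14 on array 2. The half-difference was 0.38, against a spread of 0.18 in the half-difference and 0.38 in the half-sum at a brightness of 3.58. It was thus 2 spreads or more by the first measure and no more than 1 by the second, and no side was called.

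JAZ9 (LOC4331832), a TIFY11 repressor studied in rice for salt tolerance, and JAZ5 (LOC4335698), the TIFY9 repressor, were also dim. JAZ9 had 7/13 on array 1, or −0.89, and 15/32 on array 2, or −1.09. JAZ5 had 5/12 on array 1, or −1.26, and 16/33 on array 2, or −1.04. Their half-differences of 0.10 and −0.11 lay within the half-difference spreads of 0.16 and 0.17 at their brightness of 3.85 and 3.74. JAZ5 was the 1 gene of the 6 at least 2-fold lower on both arrays, as were 3.85% of all genes and 18.4% of the features with 1 gene in the dimmest of 4 brightness groups. Features of like brightness had medians on the 2 arrays of −0.65 and −0.64 around JAZ5, −0.58 and −0.66 around JAZ9, and −0.61 and −0.63 around JAMYB. For JAZ9 and JAZ5 no difference was detectable at this signal by either spread, which does not show that they were unchanged, and for JAMYB the spreads gave different answers.

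**Figure D2:**
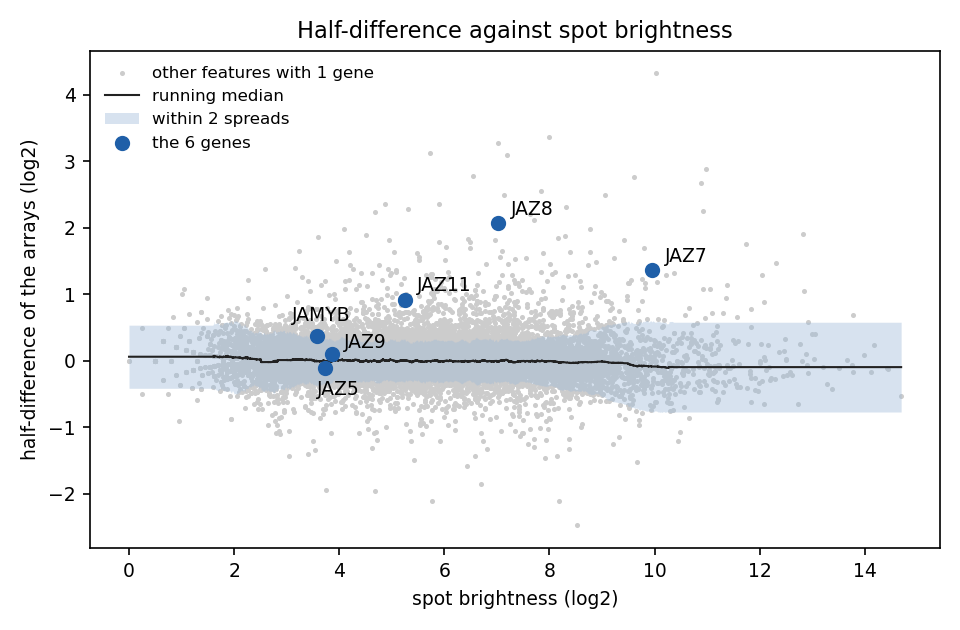
Half-difference (vertical axis, log2) against spot brightness (horizontal axis, log2) for features with 1 gene (grey) and the 6 genes (blue). The black line is the running median over the 500 features nearest in brightness and the band reaches 2 spreads of the half-difference each way; JAZ8, JAZ7 and JAZ11 lie above it, JAMYB at its upper edge, and JAZ9 and JAZ5 inside it.

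All 6 genes were at least 2-fold below 1 on array 2, against 8.75% of all genes. On array 1, JAZ5 was so too, against 7.13%, and JAZ8 and JAZ7 were at least 2-fold above 1, against 0.570%. After the median of array 2 was subtracted, JAZ8, JAZ7 and JAMYB stayed past 2-fold there, at −2.003, −1.39 and −1.32. JAZ11, JAZ9 and JAZ5 then fell short of it, at −0.81, −0.78 and −0.73. JAMYB, JAZ9 and JAZ5 were in the dimmest of 4 brightness groups, for which the share on array 2 alone was not counted. Array 2 was the brighter array for every one of the 6, for instance 10.7 against 9.23 for JAZ7, as it was in the median of all features, 5.99 against 4.83. The part of signal in the low array 2 ratios was not tested. The spots of the 6 genes lay apart on the grid, and the median of up to 24 spots around each ranged from −0.35 to −0.10 on array 1 and from −0.33 to −0.18 on array 2. With those local medians subtracted the half-differences were 1.96 for JAZ8, 1.37 for JAZ7 and 0.95 for JAZ11.

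**Figure D3:**
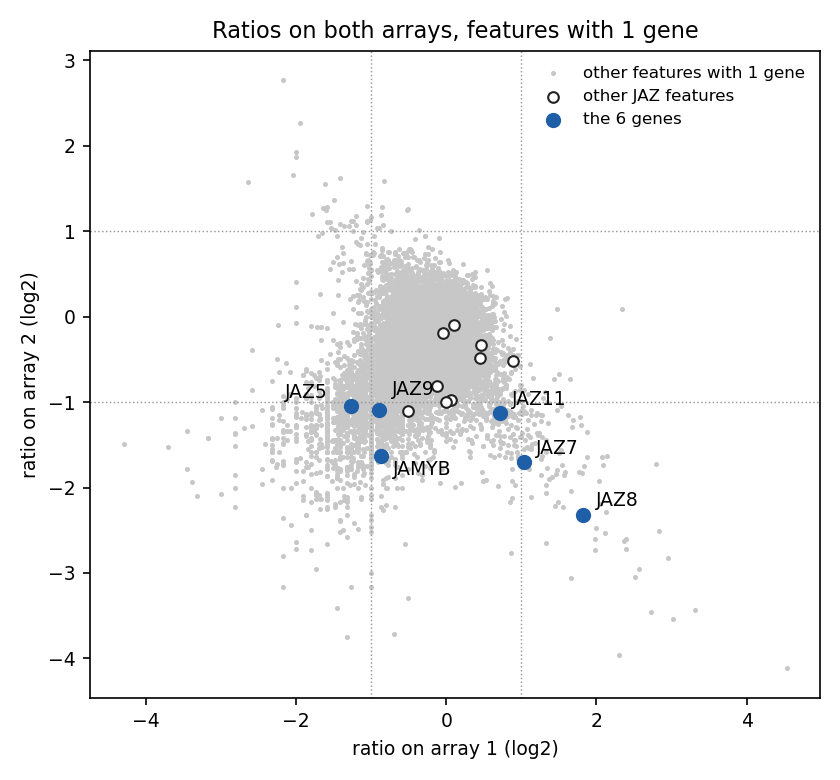
Log2 ratio on array 1 (horizontal axis) against array 2 (vertical axis) for features with 1 gene (grey), the other JAZ features (open circles) and the 6 genes (blue, named); dotted lines mark 2-fold. JAZ8 and JAZ7 lie in the lower right corner past 2-fold on both arrays, JAZ11 just left of it, and JAZ5 in the lower left corner.

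Differences between the 6 genes are free of any shift of a whole array, because it cancels between spots of the same array. Each of the 15 pairs was set against a spread of the difference, built from the half-sum spreads at the brightness of both genes. That spread is free of the treatment only if the numerator is 1 dye. It then still holds dye effects of the probes, which cancel in a half-difference, so it gives a scale and not the error of the difference. JAZ8 exceeded JAZ7 by 0.80 on array 1 and lay 0.62 further below on array 2, a half-difference 0.71 larger against a spread of 0.22. The next pair in order, JAZ7 and JAZ11, differed by 0.45 against a spread of 0.25, under 2 spreads. JAZ11 and JAMYB differed by 0.54 against 0.43. JAZ11 was the higher on both arrays, by 1.58 on array 1 and by 0.50 on array 2, so the arrays disagreed if the numerator is 1 dye. JAMYB and JAZ9 differed by 0.28 and JAZ9 and JAZ5 by 0.21, each under the spread of 0.54. In all, 9 of the 15 pairs differed by more than 2 spreads, 5 of them with JAZ8, and the 3 pairs among JAMYB, JAZ9 and JAZ5 by less than 1. These counts hold for half-sum spreads only. The half-difference spread was wider around JAZ7, at 0.34 against 0.16 in the half-sum. Around JAMYB, JAZ9 and JAZ5 it was narrower, at 0.16 to 0.18 against 0.38 to 0.39. Pairs were not counted with half-difference spreads, so which pairs pass 2 spreads depends on the spread chosen. For scale, 2 features of the same gene differed by a median of 0.15 in half-difference over 1690 such genes, and by at most 0.60 in 95% of them.

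**Figure D4:**
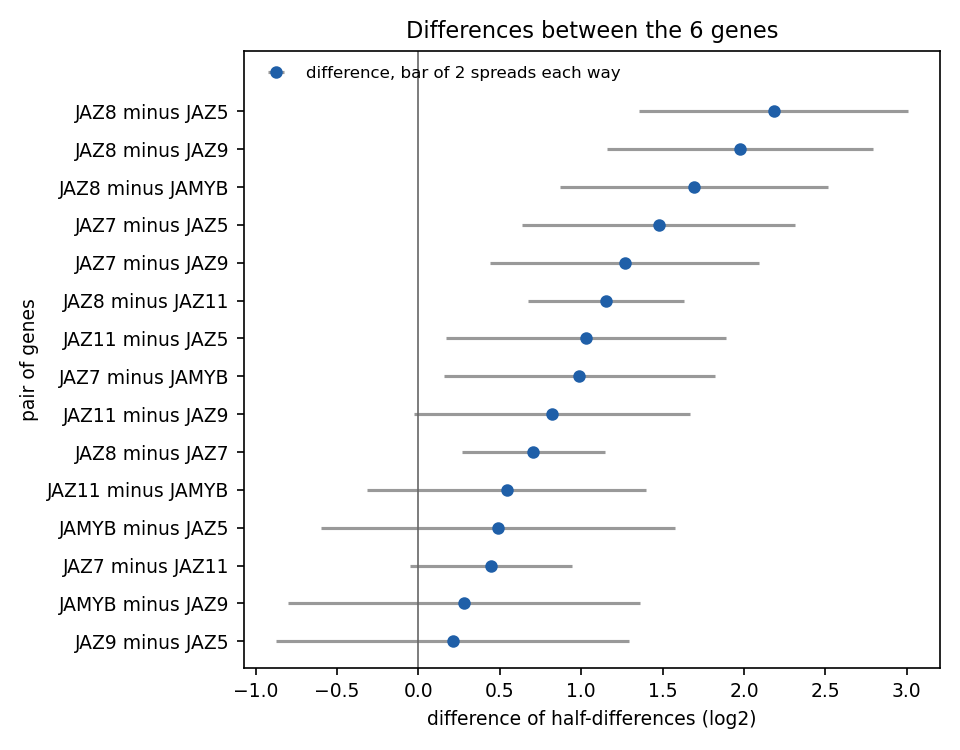
Difference of half-differences (horizontal axis, log2) for the 15 pairs of the 6 genes. Bars reach 2 spreads each way, built from the half-sum spreads of features of like brightness. The bars of the 9 pairs over 2 spreads, all 5 with JAZ8 among them, do not reach 0, and those of the other 6 pairs do.

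Half-differences varied within a TIFY group of the family. The annotation holds 13 genes with a JAZ name, of which 12 had a feature, and JAZ2 was not analysed here. In the TIFY10 group JAZ6 had 0.10 and −0.10, a half-difference of 0.10 at a brightness of 6.80, where JAZ8 and JAZ7 had 2.07 and 1.37. In the TIFY11 group JAZ11 at 0.92 was followed by JAZ12 at 0.50, JAZ10 at 0.40, JAZ9 at 0.10 and JAZ13 at 0.07. JAZ12 rests on ratios of 1/1 and 1/2, the dimmest spot of the family with a brightness of 0.25. Outside these groups JAZ1, known in rice for its part in spikelet development, had 0.89 and −0.52, a half-difference of 0.71 on a bright spot (9.55).

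JAZ9, JAZ11 and JAZ10 follow each other directly in gene order on chromosome 3 of the RefSeq assembly. JAZ11 exceeded JAZ9 by 1.60 on array 1 but lay only 0.04 below it on array 2. Its half-difference was 0.82 larger against a spread of 0.43, just under 2 spreads as built from the half-sums. JAZ11 exceeded JAZ10 by 0.53 against a spread of 0.25. JAZ10 itself had 0.46 on array 1 and −0.33 on array 2. How far the probes of such neighbours bind each other's transcripts was not tested. The symbols also overlap in the annotation: JAZ9 is listed as a synonym of the JAZ8 gene too, and OsJAZ7 belongs to both the JAZ7 and the JAZ8 gene, so the gene numbers above fix which gene is meant.

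The other 7 JAZ genes had half-differences from 0.07 to 0.71 with a median of 0.40, and none was 2-fold on both arrays in either pattern. All 7 were above 0, as were 51.7% of all genes. JAZ3 and JAZ4 had 2 features each, with half-differences of 0.52 and 0.29 for JAZ3 and of 0.46 and 0.34 for JAZ4, so the features of a gene had the same sign. JAZ3 had 0.07 and −0.97 on its brighter feature, and −0.51 and −1.10 on the other.

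**Figure D5:**
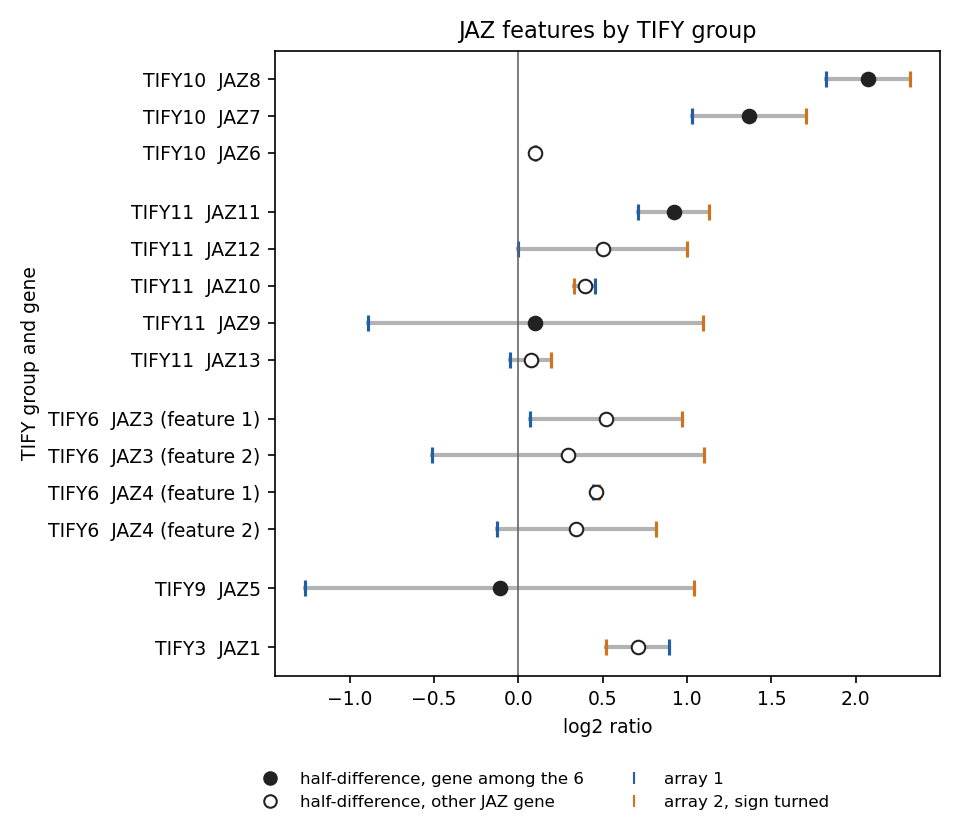
Log2 ratios (horizontal axis) of each JAZ feature by TIFY group: bars run from array 1 (blue tick) to array 2 with its sign turned (orange tick), filled dots are half-differences of the 6 genes and open dots those of other JAZ genes. JAZ8 and JAZ7 lie far to the right of JAZ6 in the same group, and bars such as those of JAZ9 and JAZ5 span 0.

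Of the wider jasmonate signalling list, the receptor subunits were near 0. Its 15 measured genes outside the 6, the 7 JAZ genes included, had a median half-difference of 0.17, and 12 were above 0. The F-box receptor genes COI1B and COI2 had half-differences of −0.03 and 0.11. The gene GH3.5, also named JAR1, whose enzyme conjugates jasmonate with isoleucine, had 0.11. The corepressor gene ASPR2, also named TPR2, had 0.24 and the bHLH factor BHLH148, a partner of JAZ proteins, −0.03 as the mean of 2 features. None of the 15 was 2-fold on both arrays; the sucrose synthase OsSUS3, the kinase OSK1 and ASP1 came in through synonyms that other genes share.

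The synthesis list of 19 measured genes had a median half-difference of 0.07, with 13 above 0. The allene oxide synthase AOS4 lay near JAZ7 in size, with 0.98 on array 1 and −1.41 on array 2, a half-difference of 1.19. The ligase 4CL-3, which the list itself held as 4CL3, belongs to phenylpropanoid metabolism. It was the 1 gene of the list on the array 1 side, with 1.09 and −1.21. AOS3, another allene oxide synthase, had −1.09 and −1.21, past 2-fold below 1 on each array, as were 3.85% of all genes. Its brightness was 4.07, where the median of all features was 5.30. LOX1.1 had 0.71, on a spot of brightness 1.94, and LOX5 had 0.54.

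The genes with a pattern most like each of the 6 were found by distance over the 2 arrays, after subtraction of the array medians, among 2104 named genes. Nearest to JAZ8 were the beta-glucosidase BGLU30, at a distance of 0.36, and the catalase CAT-A, at 0.68, and only BGLU30 lay within 0.5. BGLU30 had 2.11 on array 1 and −2.54 on array 2. Nearest to JAZ7 were CCD7, a carotenoid cleavage dioxygenase of strigolactone synthesis, at 0.10, and the cytochrome CYP71P1 at 0.24, with 6 genes within 0.5. Nearest to JAZ11 were the glutathione S-transferase GSTU6 at 0.03 and the phenylalanine ammonia-lyase PAL06 at 0.05, with 46 within 0.5. The dim genes had crowded surroundings: 52 genes lay within 0.5 of JAMYB, 108 of JAZ5 and 181 of JAZ9. The nearest were HOX7 and CCR1 for JAMYB, ABCG39 and LTP for JAZ9, and AMY1.1 and PCF1 for JAZ5, all at 0.03 to 0.07. With 2 arrays a near distance is a description of the ratios alone.

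If the columns are read instead as treated over control on both arrays, the half-sum holds the treatment. It was −0.25 for JAZ8, −0.34 for JAZ7, −0.21 for JAZ11, −1.25 for JAMYB, −0.99 for JAZ9 and −1.15 for JAZ5, where the median of all genes was −0.26. The 3 large half-differences then measure dye effects of the probes. Each half-sum was also set against the half-sum median of features of like brightness. The offset was −0.15 for JAZ8 against a spread of 0.15, −0.31 for JAZ7 against 0.16, and 0.11 for JAZ11 against 0.19. For the 3 dim genes it was −0.64 for JAMYB, −0.38 for JAZ9 and −0.51 for JAZ5, against spreads of 0.38 to 0.39.

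The 6 leaf marker genes with a feature, among them the light-harvesting protein CAB1R and PORA, had a brightness from 11.5 to 14.7. Their half-differences went both ways, from −0.65 for ISP, also named petC, to 1.05 for PORA, which had 0.97 on array 1 and −1.13 on array 2, near the values of JAZ7 and JAZ11. The part of leaf RNA in the values of the 6 genes was not tested. Of the 4 root markers only the silicon transporter Lsi1, at 8.98, was above the median brightness of 5.30, and Lsi2, IRT1 and OsCASP1 had 2.74 to 3.41. The root half-differences ranged from −0.14 to 0.12. Ratios on 2-colour arrays do not give the tissue, and leaf and root parts of the material cannot be told apart here.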

How the data were processed

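The authors scanned the arrays with a GenePix scanner and normalized them in GeneSpring version 4, per the labels; background correction and any filter on spots are steps not given in the sources used. The deposited file holds log10 ratios, 1 per spot and array, which are not centred (medians −0.0902 and −0.0954). They were multiplied to log2. The numerator is not stated: scale is known, centring absent, direction unknown. Each value's whole-number ratio was recovered as the simplest fraction within 6e-10 (log10). Control-like spots have a brightness above 4.5 and log2 ratios under −2.2 on each array, thresholds set with the values known.

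Of 22575 features, 17839 had 1 gene in the platform annotation, 21 several and 4715 none; the RefSeq table of assembly ASM3414082v1, used for names and gene order only, held the gene number of all 17839. Features were paired with spots through a rearranged grid. By spot number 85.1% of control-like spots had a gene; the Spearman correlation of half-differences between 2 features of 1 gene was 0.31 with the grid and 0.01 without.

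Both arrays were 1 replicate, so fold thresholds took the place of tests. The members, lists and the grid were chosen with earlier results of these data known. Named genes were the 6 members, the 2 nearest named genes to each, and of each list the genes 2-fold on both arrays and the 3 next largest half-differences; the receptor, conjugating and corepressor genes, BHLH148, the genes matched by shared synonyms and the leaf and root markers were added after their values were seen. Sequence comparisons were not made here. Steps ran in Python 3.11.15 with numpy 2.4.6 and pandas 2.3.3 and were tested on simulated data. The number of arrays limits precision.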

Additional observations from a re-analysis of the deposited data

How the results depend on the processing

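Centring on array medians, on features of like brightness, on neighbouring spots or, added after seeing the data, on features with 1 gene left all 6 half-differences within their spread, and the first 3 kept the count of 2 genes in opposite directions. Single features gave no further value, as each gene has 1. With array 1 alone the values were 1.82 (JAZ8), 1.03 (JAZ7), 0.71 (JAZ11), −0.87 (JAMYB), −0.89 (JAZ9) and −1.26 (JAZ5), and with array 2 alone and its sign turned 2.32, 1.70, 1.13, 1.63, 1.09 and 1.04. By the half-sum they were −0.25, −0.34, −0.21, −1.25, −0.99 and −1.15 in that order, so 5 of the 6 changed sign and JAZ5 stayed below 0. The half-sum is not centred, and its median over all genes was −0.26. After the array medians were subtracted it was 0.06 for JAZ8, −0.03 for JAZ7 and 0.10 for JAZ11. For JAMYB, JAZ9 and JAZ5 it was then −0.95, −0.68 and −0.85. With names by spot number the 6 half-differences were 0.0822, 0.0303, −0.13, −0.00702, −0.30 and 0.32, since other spots are then read. The 2 genes became 3 at 1.5-fold (with JAZ11), 1 at 3-fold (JAZ8), 3 with array 1 alone (with JAZ5), 6 with array 2 alone, 1 by the half-sum (JAZ5) and 0 by spot number; 144 features became 406 at 1.5-fold, 43 at 3-fold, 2668 and 2928 with array 1 or 2 alone and 1719 by the half-sum. JAZ11 minus JAMYB was 1.58 with array 1 alone and −0.50 with array 2 alone turned, and JAZ11 minus JAZ9 1.60 and 0.0368. The signalling list's median of 0.17 became −0.05 with array 1 alone, 0.52 with array 2 alone turned and −0.28 by the half-sum. The synthesis list's 0.07 became −0.17, 0.45 and −0.22. These values are not centred: the median of all features was −0.30 on array 1 and −0.32 on array 2 before its sign is turned. By the half-sum the median of all genes was −0.26. Dropping the signalling genes matched by a shared synonym, and 4CL-3 from the synthesis list, moved neither list's median beyond the spread. The genes dropped were chosen after seeing the data. The cause of these changes was not tested unless named. Dim spots limit JAMYB, JAZ9 and JAZ5. No paired analysis was possible because both arrays belong to a single replicate.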
